A study of Mus musculus with 2 samples.

Results

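Ear1, Ear2, Rnase2a, Rnase4 and Ang are genes of the vertebrate-secreted ribonuclease A family, and their UMI counts were followed here across the cell classes of a control and a fibrotic mouse lung. They are the 5 genes of 27998 in both count tables whose symbols are on a list of eosinophil-associated and neighbouring ribonucleases. The list was chosen because earlier results from these libraries had placed the genes in alveolar macrophages and had set those cells apart by their Mmp12 level. The levels by cell class and by Mmp12 are therefore a description of these libraries and not a test of the genes. The label is only partly borne out by the cells kept in these libraries. None was assigned to eosinophils by marker genes, and the genes lay mainly in macrophages, monocytes and part of the epithelium.

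The 2 libraries, each from 1 mouse, are single-cell RNA sequencing of whole lung with the 3′ V2 droplet chemistry of 10x Genomics. All mice were male C57Bl/6J animals aged 3 months that were given 100 µg of particles through the trachea and examined after 14 days. The particles were crocidolite asbestos, a fibre that scars the lung, or titanium dioxide, and the labels attach both to every sample, so each library goes here by its own name, control or fibrosis. The lung was flushed of blood and broken up with dispase and DNase I, red cells were lysed, and no sort is named.

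Ribonucleases of this family are small secreted proteins that cut RNA and are held together by disulfide bonds. The best known human members, eosinophil-derived neurotoxin and eosinophil cationic protein, sit in the granules of eosinophils and act against viruses, bacteria and parasites. In the mouse the same branch has multiplied into the Ear genes, and some of these are made by macrophages and monocytes as well. Ang encodes angiogenin, which drives vessel growth and cuts tRNA in stressed cells, and Rnase4 encodes a ribonuclease that prefers to cut after uridine. Ang and Rnase4 share their promoters and first noncoding exons, so 2 proteins come from a common transcription unit.

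All 5 genes lie on chromosome 14 (GENCODE M21 on GRCm38, which matched each identifier in the count tables). Ear1 (ENSMUSG00000072601) spans chr14:43818765-43875517 on the minus strand and Ear2 (ENSMUSG00000072596) chr14:44102654-44103534 on the plus strand, 227 kb apart. Rnase4 (ENSMUSG00000021876, chr14:51091077-51106151) and Ang (ENSMUSG00000072115, chr14:51091150-51102009) lie 6988 kb further along on the plus strand, Ang inside the span of Rnase4. Rnase2a (ENSMUSG00000047222, chr14:51255262-51256112) follows 149 kb later on the minus strand. Each annotated transcript of the members has 2 exons. The 250 bases upstream of the first annotated start of each gene (RefSeq, GRCm38.p6) are shown because Ear1 and Ear2 are almost the same there while their levels were not. Ear1 is at chr14:43819640-43819889 on the minus strand, Ear2 at chr14:44102404-44102653 on the plus strand, Rnase2a at chr14:51256113-51256362 on the minus strand and Rnase4 at chr14:51090827-51091076 on the plus strand. The Rnase4 window is also that of Ang, letter for letter. The Ear1 window lies inside the GENCODE span of the gene, since another Ear1 transcript there starts further upstream, at 43875517. Capitals mark the 2 bases at which Ear1 and Ear2 differ and, in Rnase2a, a run of 19 bases that neither of them holds.
Ear1: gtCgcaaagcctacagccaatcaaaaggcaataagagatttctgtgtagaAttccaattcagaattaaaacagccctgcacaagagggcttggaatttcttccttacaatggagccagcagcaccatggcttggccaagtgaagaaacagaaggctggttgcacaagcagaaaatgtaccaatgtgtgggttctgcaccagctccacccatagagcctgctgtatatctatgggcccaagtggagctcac
Ear2: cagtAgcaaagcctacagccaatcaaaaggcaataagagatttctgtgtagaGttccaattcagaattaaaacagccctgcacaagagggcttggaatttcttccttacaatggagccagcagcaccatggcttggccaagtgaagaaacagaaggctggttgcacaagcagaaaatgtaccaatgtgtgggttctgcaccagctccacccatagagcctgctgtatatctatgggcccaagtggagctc
Rnase2a: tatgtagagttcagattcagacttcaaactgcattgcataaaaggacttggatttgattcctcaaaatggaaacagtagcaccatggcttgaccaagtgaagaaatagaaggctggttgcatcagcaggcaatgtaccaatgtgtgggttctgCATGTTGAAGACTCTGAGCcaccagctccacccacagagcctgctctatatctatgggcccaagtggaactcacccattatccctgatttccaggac
Rnase4: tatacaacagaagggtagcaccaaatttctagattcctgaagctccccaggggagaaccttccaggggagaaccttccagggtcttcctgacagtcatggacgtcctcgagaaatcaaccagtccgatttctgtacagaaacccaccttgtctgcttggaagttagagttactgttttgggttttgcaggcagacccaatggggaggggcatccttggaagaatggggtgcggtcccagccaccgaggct

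The upstream windows of Ear1 and Ear2 were identical at 246 of 248 aligned bases (99.2%). That of Rnase2a matched Ear1 at 179 of 208 aligned bases (86.1%) and Ear2 at 178 of 206 (86.4%). The 19 extra bases of Rnase2a were found in the window of Ear6 too, but not in those of Ear10 or Rnase2b. The pentamer CCAAT, searched on both strands like the other motifs, occurred 3 times in Ear1, at 234, 197 and 72 bases before the start, and 3 times in Ear2, at 232, 195 and 70 bases. It occurred once in Rnase2a and once in Rnase4, and 33.8% of 32817 upstream windows of this length hold it. The C/EBP pattern TTGCNNAA was present once in Ear1, Ear2 and Rnase2a and absent from the Rnase4 window, against 9.57% of all windows. The ETS core GGAAGT occurred only in the Rnase4 window (19.7% of all windows), and neither TATAA (22.8%) nor the AP-1 pattern TGANTCA (6.75%) was found in the 4 windows. No match overlapped another.

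Similar transcripts limit how firmly reads can be given to Ear1 or Ear2. Their longest transcripts were identical at 691 of 713 aligned bases (96.9%), and each matched Rnase2a at 83.0% and 83.5%. Within the last 500 bases, where 3′ reads fall, 58.1% of all 50-base words of Ear1 also occur in transcripts of other genes, most often in the pseudogene Ear-ps9 (34.6%). For Ear2 the share was 38.1%, most of it shared with Ear1 (31.7%). None of the 50-base words of Rnase2a, Rnase4 or Ang were shared with another gene. How the authors counted reads that match several genes is not given in the sources used here. The counts of Ear1 and Ear2 are therefore uncertain in a way that those of the other 3 genes are not.

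The control library held 8280 cells with 36632591 UMIs and the fibrosis library 7173 cells with 38090308 UMIs, with medians of 3784 and 4292 UMIs per cell, and 89 barcodes occurred in both. Cells were assigned to 24 classes by marker genes that included none of the 5 genes, and 13 classes had at least 50 cells in each library. The alveolar macrophage class had 668 control and 965 fibrosis cells, with all 8 of its markers at least 2-fold higher than in the other cells. The interstitial macrophage class had 168 and 395 cells, with all 8 of its own raised. The same markers had assigned the cells, so their rise is no separate check of the classes. No cell passed the eosinophil gate. Over all kept cells of both libraries the eosinophil granule genes Epx and Prg3 had 0 UMIs, while control and fibrosis counts were 3 and 10 UMIs for Prg2 and 9 and 4 for Ccr3. A level is given as CPM, the UMIs of a gene in every 1000000 UMIs of the class. Brackets hold exact Poisson or binomial intervals at 95%, which cover counting error only. Those of levels and ratios treat UMIs as independent and are too narrow where few cells hold most UMIs, as for Rnase2a. Since each group is 1 mouse, the spread between mice is unknown, and no p-value is given.

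Ear1 and Ear2 were found mainly in alveolar macrophages, the phagocytes of the air space. These cells held 86.6% of all 4553 Ear1 UMIs in the control library and 86.8% of 4395 in the fibrosis library, and 75.5% and 73.9% of the Ear2 UMIs (13038 and 19956 in all). Ear1 stood at 1149.7 CPM (1114 to 1186) in control alveolar macrophages and at 691 CPM (669 to 713) in those of the fibrosis library. It was thus 1.66-fold lower with fibrosis, a log2 ratio of -0.73 (-0.80 to -0.67). Ear2 stood at 2869 CPM (2813 to 2927) and 2672 CPM (2629 to 2716), a log2 ratio of -0.10 (-0.14 to -0.07), or -0.89 once the median ratio of Ear2 over the other classes was subtracted. The median control cell held 4 Ear1 UMIs and the median fibrosis cell 2, but both held 11 Ear2 UMIs. In pooled CPM Ear1 was thus lower and Ear2 close to its control level, while the median ratio over 10300 genes measured in this class was -0.06. After the same subtraction Ear1 had a ratio of -0.81. Its median of 0.08 came from only 4 classes with few Ear1 UMIs, whose ratios ran from -1.60 to 3.35. That of Ear2, 0.79, came from 11 classes, so the 2 subtracted ratios do not rest on like references.

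The alveolar macrophages of the 2 libraries lay partly in different clusters, whose values were looked at after the pooled ones. A cluster with 624 control and 641 fibrosis cells had 1191 and 869 CPM of Ear1, a log2 ratio of -0.46 (-0.53 to -0.38), and 2999 and 2843 CPM of Ear2 (-0.08). Another was nearly all fibrosis, with 13 control and 358 fibrosis cells, and had 456 and 282 CPM of Ear1 and 1381 and 2192 CPM of Ear2. In 3 of these control and 203 of these fibrosis cells Mmp12 made up at least 0.1% of the UMIs. The cluster of 40 and 65 cells had 681 and 719.8 CPM of Ear1, a log2 ratio of 0.08 (-0.17 to 0.34), and in the smallest, of 15 and 11 cells, Ear1 stood at 1136 and 404 CPM (-1.49). Ear1 was thus lower with fibrosis in 3 of the 4 clusters, and by less than the pooled ratio in the one that held most cells.

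**Figure D1:**
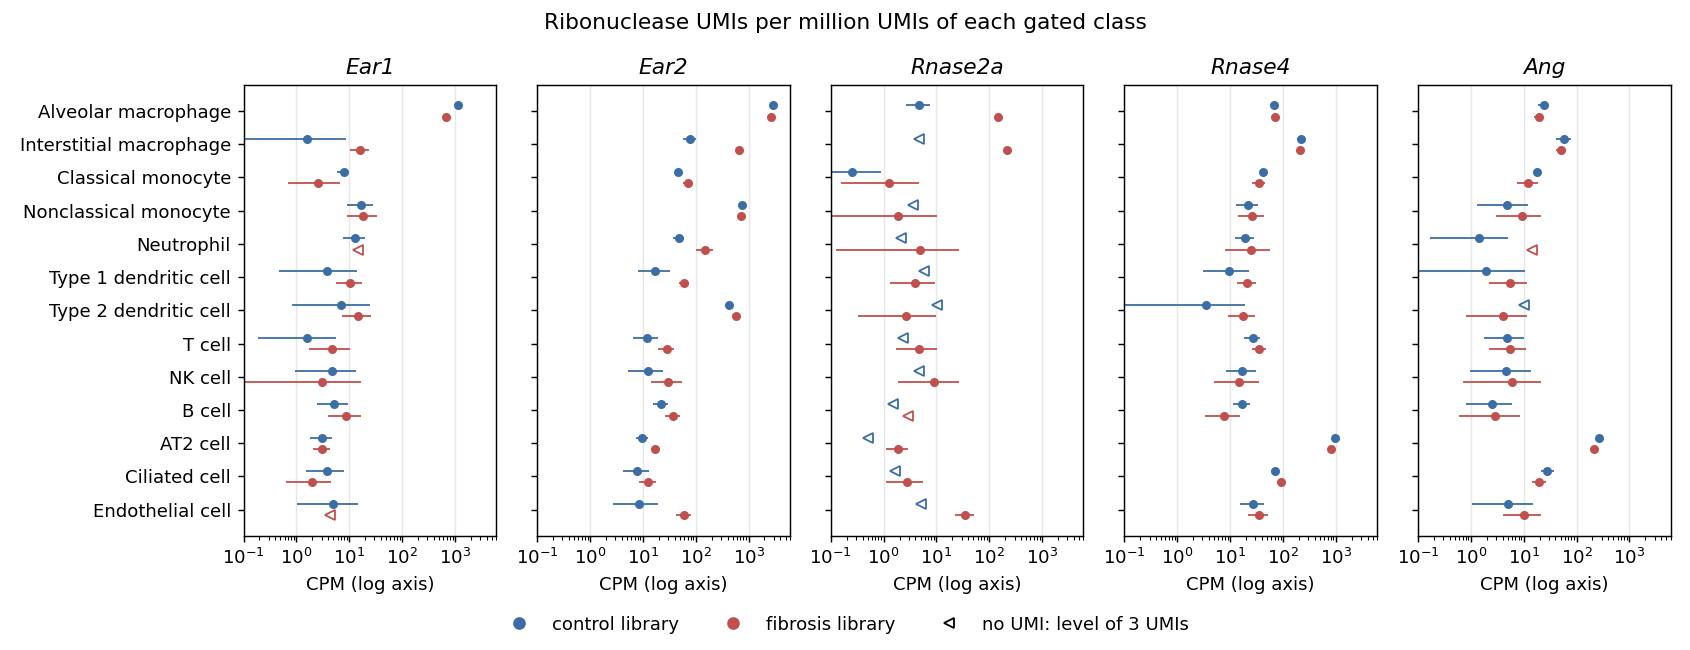
Each panel shows 1 gene, with its CPM (log axis) in 13 gated classes, the control library in blue and the fibrosis library in red; bars are exact Poisson 95% intervals, drawn from 0.1 CPM upwards, and open triangles mark the level of 3 UMIs where no UMI was counted. Ear1 lies above 600 CPM in alveolar macrophages alone, Ear2 also reaches 737 and 731 CPM in nonclassical monocytes, and Rnase4 and Ang peak in AT2 cells.

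Detection of Ear1 per cell moved with its level. At least 1 Ear1 UMI was counted in 89.2% of control and 71.9% of fibrosis alveolar macrophages. After each cell was thinned to 1000 UMIs the shares were 58.5% (54.7 to 62.3) and 41.0% (37.9 to 44.2). For Ear2 they were 98.7% and 96.9%, or 84.3% and 79.3% in thinned cells. B cells, which should lack both genes, gave thinned shares of 0.557% and 1.33% for Ear1 and 2.00% and 2.13% for Ear2, with medians of 1844 and 2566 UMIs per cell against 4915 and 5229 in alveolar macrophages. The alveolar macrophage shares were far above this level for both genes.

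Rnase2a, a mouse relative of eosinophil-derived neurotoxin, was found almost entirely in the fibrosis library, with 1390 UMIs there against 20 in the control. In alveolar macrophages 808 UMIs were counted in the fibrosis library (146 CPM, 136 to 157) and 16 in the control (4.67 CPM, 2.67 to 7.58). The log2 ratio was 4.97 (4.26 to 5.78), and 16 of the 10300 genes measured had a higher one. Among these genes 3.68% were at least 2-fold higher and 1.85% at least 2-fold lower, and of the 5 ribonucleases 1 was higher and 0 were lower, with a median log2 ratio of -0.10. Of the 16 control UMIs 13 lay in 1 cell, which also held 92 Mmp12 UMIs among its 4683, had 13 Ear2 UMIs and no Ear1 UMI. Without that cell the log2 ratio was 7.38.

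Few alveolar macrophages carried Rnase2a even with fibrosis. At least 1 UMI was seen in 13.9% of the fibrosis cells and in 0.599% of the control cells, and in thinned cells in 6.74% (5.24 to 8.51) and 0.150%. The 97 richest of the 965 cells held 95.4% of its Rnase2a UMIs, against 42.4% for Ear1 and 31.9% for Ear2. One cell alone held 136 of the 808 UMIs (16.8%), and the next held 52. B cells had 0 Rnase2a UMIs in both libraries, which allows levels of up to 1.87 CPM in the control and 3.53 CPM in the fibrosis library.

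Mmp12, macrophage elastase, degrades the elastic fibres of the lung, and the alveolar macrophages were divided at a share of 0.1% of a cell's UMIs. In the fibrosis library 166 alveolar macrophages lay at or above this bound and 799 below it, while the control library had only 1 cell above. Rnase2a stood at 623 CPM (577 to 672) in the Mmp12-high cells and at 31.7 CPM (26.7 to 37.4) in the others. The log2 difference was 4.30 (4.03 to 4.57), and 3.99 without the cell that held 136 of its UMIs. Ear1 ran the other way, with 369 CPM (333 to 407) against 768 CPM (743 to 794), 2.08-fold lower in Mmp12-high cells, a log2 difference of -1.06 (-1.21 to -0.91) that was -0.88, under 2-fold, when the gate asked for 1 more marker. Ear2 was nearly level at 2526 and 2708 CPM, a log2 difference of -0.10 (-0.16 to -0.04). Rnase4 stood at 98.1 and 65.4 CPM, a log2 difference of 0.58 (0.25 to 0.91), but -0.03 in thinned cells. Ang stood at 14.9 and 20.2 CPM, which its interval could not separate (-1.30 to 0.34 on the log2 scale). Of 9509 genes measured in this comparison 3.66% were at least 2-fold higher and 6.33% at least 2-fold lower in the Mmp12-high cells, beside 1 and 1 of the 5 ribonucleases.

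**Figure D2:**
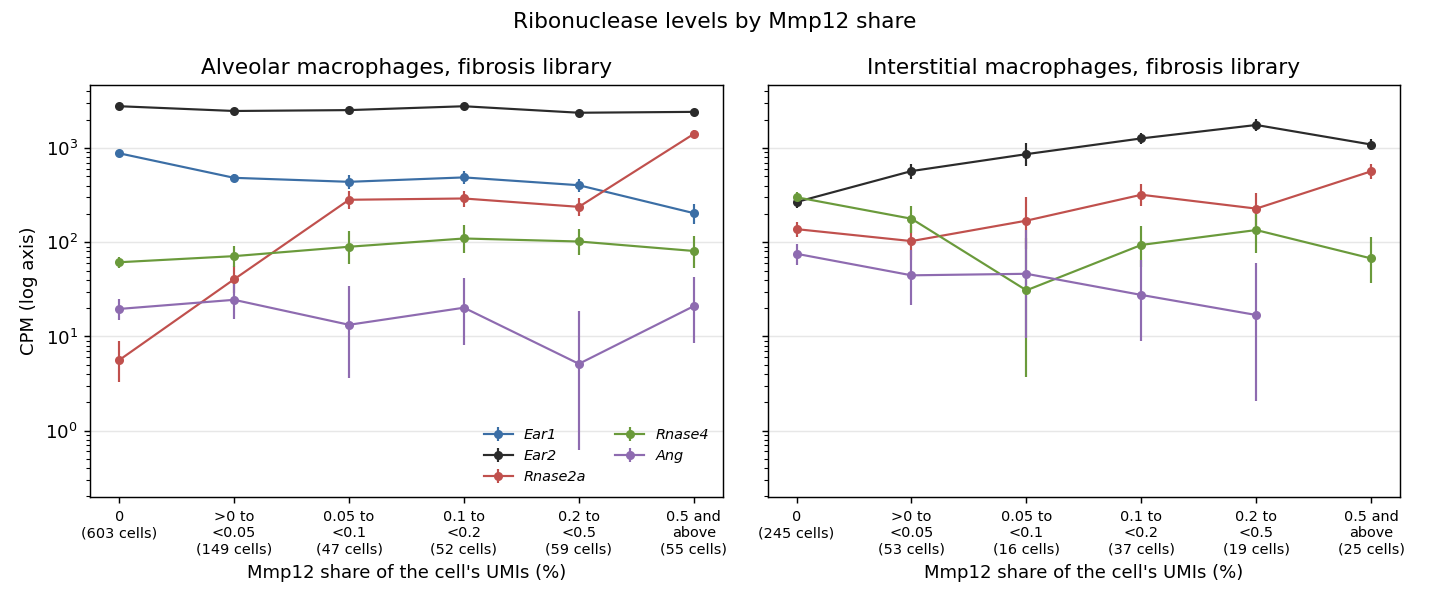
CPM (log axis) of the ribonucleases in fibrosis alveolar macrophages (left) and interstitial macrophages (right), with cells binned by the share of their UMIs that is Mmp12; points are pooled levels with exact Poisson 95% intervals, cell numbers stand under each bin, and Ear1 in interstitial macrophages and bins with no UMI are not drawn. On the left Rnase2a lies at 5.61 CPM in the first bin, between 238 and 292 CPM in the 3 bins from 0.05% to 0.5% and at 1416 CPM in the last, Ear1 goes from 882 to 204 CPM with 404 to 489 CPM in those 3 bins, and Ear2 stays between 2378 and 2789 CPM. In the last bin on the left 136 of the 473 Rnase2a UMIs lie in 1 cell.

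Across 6 bins of rising Mmp12 the fibrosis alveolar macrophages changed in steps rather than at the bound. Ear1 stood at 882 CPM in the 603 cells with no Mmp12 UMI, at 484 CPM in the 149 cells above 0 and below 0.05%, and at 204 CPM in the 55 cells at 0.5% or more. Rnase2a stood at 5.61, 40.5 and 1416 CPM in the same bins, and 136 of the 473 UMIs in the last bin lay in 1 cell. Just below the bound, from 0.05% to 0.1%, the 47 cells had 283 CPM of Rnase2a and 439 CPM of Ear1, and just above it, up to 0.2%, the 52 cells had 292 and 489 CPM. The next bin, up to 0.5%, had 238 and 404 CPM in 59 cells. From 0.05% to 0.5% both genes thus kept like levels, and neither changed steadily with Mmp12. Ear2 had no such slope, with 2789 CPM in the lowest and 2429 CPM in the highest bin.

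Ear1 was also lower in the fibrosis library below the Mmp12 bound. In cells with no Mmp12 UMI it stood at 1148 CPM in 659 control and 882 CPM in 603 fibrosis cells. Cells below the bound that held some Mmp12 were 8 in the control, and 149 and 47 in the 2 fibrosis bins. The part of Mmp12 content in the difference was not tested. Among cells below the bound alone Ear1 stood at 1151 CPM in the control and 768 CPM in the fibrosis library, a log2 ratio of -0.58 (-0.65 to -0.52). For Ear2 it was -0.08, at 2869.6 and 2708 CPM. Rnase2a stood at 0.876 CPM from 3 control UMIs and at 31.7 CPM, a log2 ratio of 5.18 (3.60 to 7.47), where 2.67% of 10046 genes were at least 2-fold higher. Markers of the alveolar macrophage also differed along the split. Marco, a scavenger receptor, stood at 86.9 CPM in Mmp12-high and 259 CPM in other fibrosis cells, and Siglecf at 69.1 and 122 CPM. Of the 8 alveolar markers 6 were lower in Mmp12-high cells and 2 were higher, Mrc1 (897 against 782 CPM) and Atp6v0d2 (695 against 648 CPM), and their summed level was 3549.5 against 4314 CPM. All 8 interstitial markers were higher there, 174 against 78.2 CPM in sum, the complement gene C1qa with 25.2 against 12.6 CPM. Some of these rest on few counts, such as Folr2 with 1 against 2 UMIs and Stab1 with 5 against 12. Their part in the Ear1 difference was not tested. Epx had no UMI in either set of cells.

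In thinned fibrosis alveolar macrophages 13 of the 65 cells with an Rnase2a UMI had an Ear1 UMI (11.1% to 31.8%), against 383 of the 900 cells without one, 42.6% (39.3 to 45.9). Ear2 was found in 80.0% and 79.2% of the same cells. Within the Mmp12-high cells alone 15.1% (6.75 to 27.6) of 53 cells with Rnase2a had Ear1, against 30.1% (21.8 to 39.4) of 113 without, and these intervals overlap. Ear1 and Ear2 went together more often, since 90.2% of cells with an Ear1 UMI had Ear2, against 71.7% of those without, and in the control library 89.8% against 76.5%.

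Interstitial macrophages, which lie in the tissue around airways and vessels, held little Ear1, Ear2 or Rnase2a in the control lung and more Ear2 and Rnase2a in the fibrosis library. Ear2 had 49 UMIs in the control class, 76.8 CPM (56.8 to 102), and 1074 with fibrosis, 659 CPM (619.7 to 699). The log2 ratio was 3.10 (2.69 to 3.54). Rnase2a went from 0 UMIs to 352 (216 CPM, 194 to 239.6). This is 45.9-fold higher when the control class is given 3 UMIs, with a lower log2 bound of 5.21. Ear1 had 1 and 26 UMIs, a log2 ratio of 3.35 with an interval from 0.74 to 8.70, which was 0.92, under 2-fold, when classes were taken from clusters. Rnase4 (223 and 208 CPM) and Ang (58.0 and 50.9 CPM) differed between the libraries by less than counting error. In this class 7.56% of 7755 genes were at least 2-fold higher and 3.73% at least 2-fold lower, beside 3 and 0 of the 5 ribonucleases, of which Ear1 fell below 2-fold with clusters.

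The UMIs were again held by few cells. An Ear2 UMI was present in 20.8% (16.9 to 25.1) of thinned fibrosis interstitial macrophages against 4.17% in the control, and an Rnase2a UMI in 8.61% against 0%. Of the 34 thinned cells with Rnase2a 55.9% (37.9 to 72.8) had Ear2, against 17.5% (13.7 to 21.8) of 361 without. A share of 0.1% Mmp12 was reached by 10 control and 81 fibrosis cells. In those 81 cells Ear2 stood at 1313 CPM and Rnase2a at 400.1 CPM, against 363 and 133 CPM in the remaining 314, log2 differences of 1.85 (1.67 to 2.04) and 1.59 (1.28 to 1.91). Rnase4 and Ang were lower there, at 92.6 against 261 CPM and 13.8 against 67.6 CPM. Of 6778 genes 7.11% were at least 2-fold higher and 8.93% at least 2-fold lower in the Mmp12-high cells. All 8 interstitial markers were lower there, 7606 against 15397 CPM in sum, C1qa with 2440.0 against 4730.5 CPM. Of the 8 alveolar markers 4 were higher, among them Atp6v0d2 (453 against 43.6 CPM) and Abcg1 (238 against 65.0 CPM). The other 4 were lower, among them Mrc1 (357 against 588 CPM) and Cidec, which had no UMI, and the sum of all 8 was 1121 against 735 CPM. The part of these markers in the ribonuclease levels was not tested.

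Below the bound Ear2 still stood at 67.2 CPM in control and 363 CPM in fibrosis interstitial macrophages (log2 ratio 2.43, 1.96 to 2.94). Rnase2a stood at 0 and 133 CPM, 26.3-fold higher when the control is given 3 UMIs, with a lower log2 bound of 4.40. In this comparison 5.11% of 6944 genes were at least 2-fold higher. When classes were instead taken from clusters, the interstitial cluster of 158 control and 341 fibrosis cells had 47.4 and 458 CPM of Ear2 and 0 and 149 CPM of Rnase2a. Mmp12-high alveolar and Mmp12-high interstitial cells of the fibrosis library differed most in Ear1, at 369 and 23.7 CPM, 15.6-fold higher in the alveolar cells, where 10.7% of 6689 genes were at least 2-fold higher. Rnase2a differed by 0.64 (0.41 to 0.87) and Ear2 by 0.94 on the log2 scale. Gates and clusters divided the Mmp12-high fibrosis cells differently. The interstitial cluster held 44 of them, against 81 in the interstitial gate. The mostly fibrosis alveolar cluster held 203, against 166 in the alveolar gate.

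Outside the macrophages Ear2 was highest in nonclassical monocytes, the cells that patrol the vessel wall. It stood there at 737 CPM (679.9 to 798) in the control and 731 CPM (661 to 807) in the fibrosis library, a log2 ratio of -0.01 (-0.20 to 0.17). Classical monocytes, which enter inflamed tissue, had 46.7 and 71.0 CPM. The log2 difference between these 2 monocyte classes was 3.98 (3.79 to 4.17) in the control and 3.36 (3.06 to 3.68) in the fibrosis library, where 8.83% of 9469 and 7.69% of 6758 genes were at least 2-fold higher. Type 2 dendritic cells, which present antigen to helper T cells, had 425 CPM (353 to 507) and 580.2 CPM (527 to 637), a log2 ratio of 0.45 (0.16 to 0.75) that was -0.13 in thinned cells. In the fibrosis library Ear2 thus ran in order from alveolar macrophages to nonclassical monocytes, interstitial macrophages and type 2 dendritic cells. The intervals of neighbours overlapped among the last 3.

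Ear1 was low in all of these classes. It stood at 16.8 and 18.6 CPM in nonclassical monocytes, 6.91 and 14.7 CPM in type 2 dendritic cells and 3.04 and 3.09 CPM in AT2 cells, against 5.08 and 8.62 CPM in B cells. Of the 24 Ear1 UMIs of nonclassical monocytes 10 lay in 1 control cell, and without it the log2 ratio went from 0.14 to 1.92. Classical monocytes had 62 and 4 UMIs, 7.79 and 2.56 CPM, with 24 of them in 1 control cell. The log2 ratio was -1.60 (-3.53 to -0.18), -0.90 without that cell and between -1.68 and -0.26 over all alternatives, in a class where 3.55% of genes were at least 2-fold lower.

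**Figure D3:**
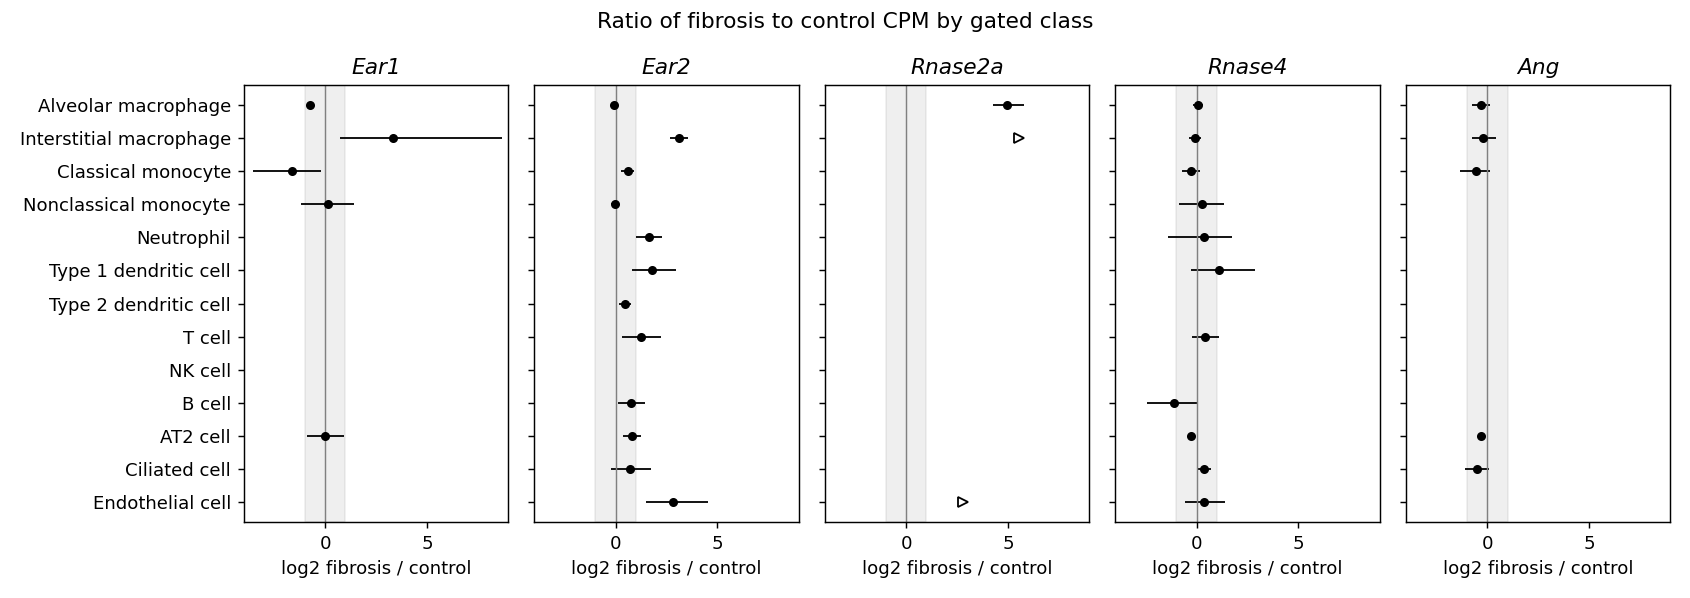
Log2 ratio of fibrosis to control CPM for each gene in each gated class, where both libraries together had at least 20 UMIs; bars are exact 95% intervals from counting error, open triangles are lower bounds where the control had no UMI, and the grey band marks less than 2-fold. Rnase2a lies far to the right in both macrophage classes, and Ear2 lies above 0 in most classes other than alveolar macrophages and nonclassical monocytes.

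Low Ear2 counts were higher in the fibrosis library in nearly every class. B cells had 21.8 and 37.4 CPM, a log2 ratio of 0.78 (0.11 to 1.43), and AT2 cells 9.62 and 16.7 CPM (0.79, 0.35 to 1.26). T cells had 11.8 and 28.1 CPM (1.25, 0.34 to 2.22), type 1 dendritic cells 17.3 and 60.7 CPM (1.81, 0.81 to 2.99), neutrophils 48.2 and 151 CPM (1.65, 0.99 to 2.28) and endothelial cells 8.36 and 59.4 CPM (2.83, 1.49 to 4.53). In neutrophils, type 1 dendritic cells, T cells and endothelial cells Ear2 was past 2-fold, as were 16.7%, 5.16%, 5.23% and 5.58% of all genes measured in those classes. Over the 11 classes other than alveolar macrophages with enough UMIs the ratio was above 0 in 10, with a median of 0.79. Whether RNA released from other cells into the suspension gave these counts was not tested. The ratios of type 2 dendritic cells (0.45) and classical monocytes (0.60) are smaller than this median, and that of interstitial macrophages (3.10) is larger.

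Rnase2a had few UMIs in the other gated classes. Of the 1390 UMIs of the fibrosis library 125 lay in cells without a class and 31 in mixed cells. In the fibrosis library AT2 cells had 18 UMIs (1.85 CPM), ciliated cells 7 and T cells 6. Endothelial cells had 24 UMIs (34.8 CPM, 22.3 to 51.7), but 18 of these were in 1 cell. Classical monocytes had 2 UMIs in each library and nonclassical monocytes 0 and 1.

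The share of Ear1 in the sum of Ear1 and Ear2 does not depend on the depth of a class and was compared between classes and libraries. It was 28.6% (27.9 to 29.4) in control alveolar macrophages and 20.5%, with an upper bound of 21.1%, in those of the fibrosis library. Within the latter it was 22.1% (21.5 to 22.8) below the Mmp12 bound and 12.7% (11.6 to 14.0) above it. Interstitial macrophages had 2.00% and 2.36%, nonclassical monocytes 2.23% and 2.48% and type 2 dendritic cells 1.60% and 2.47%, so their Ear2 came with little Ear1. B cells (18.9% and 18.8%) and AT2 cells (24.0% and 15.6%) had shares nearer to that of the alveolar macrophages, as did the cells left out as mixed (23.6% and 18.9%). Rnase2a made up 19.8% of Rnase2a and Ear2 together in Mmp12-high alveolar macrophages and 24.7% in fibrosis interstitial macrophages.

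**Figure D4:**
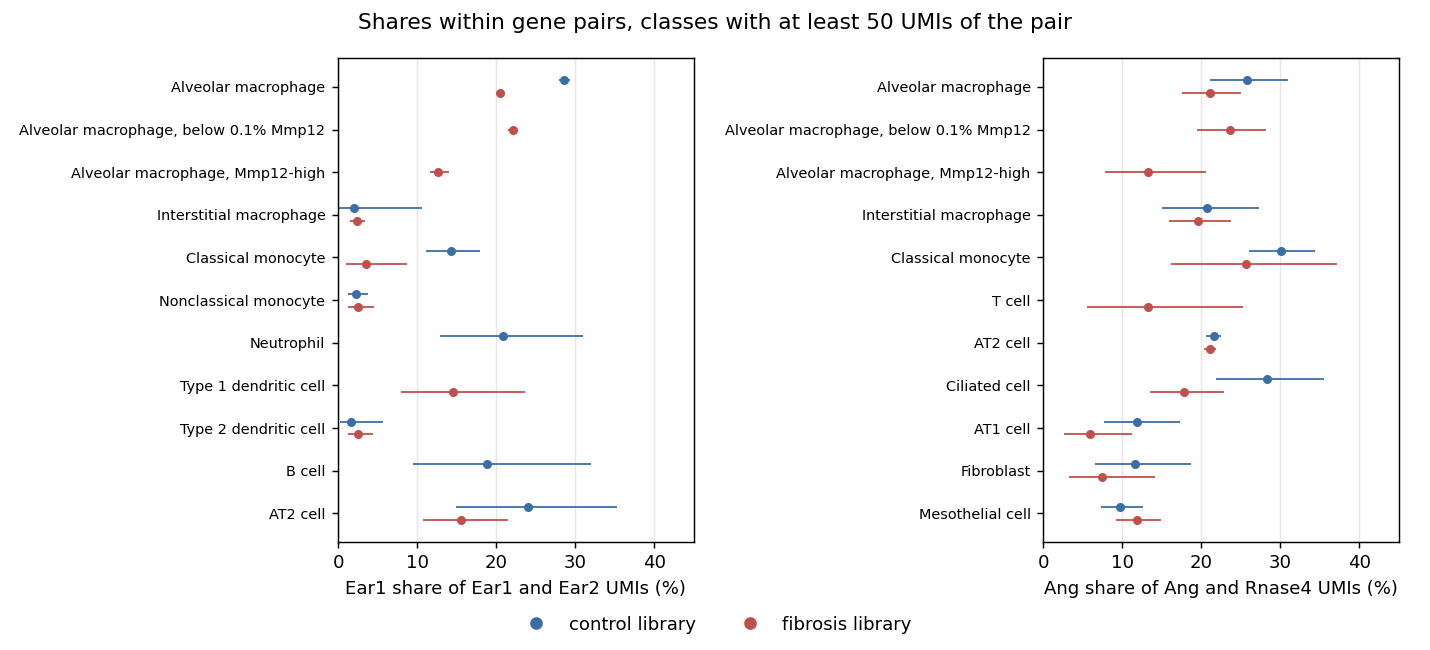
Ear1 as a percentage of Ear1 and Ear2 UMIs (left) and Ang as a percentage of Ang and Rnase4 UMIs (right) in classes with at least 50 UMIs of the pair, control in blue and fibrosis in red, with exact binomial 95% intervals. The Ear1 share is 28.6% and 20.5% in alveolar macrophages but below 3% in interstitial macrophages and nonclassical monocytes, while the Ang share of AT2 cells is 21.6% and 21.1%.

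Rnase4 and Ang had most of their UMIs in AT2 cells, and both were also found in mesothelial cells, AT1 cells and fibroblasts. AT2 cells, which make surfactant, held 66.6% and 68.6% of the Rnase4 UMIs (8744 and 11516 in all) and 69.8% and 72.5% of the Ang UMIs (2291 and 2915). Rnase4 stood at 983 CPM (958 to 1008) in control and 814 CPM (796 to 832) in fibrosis AT2 cells, a log2 ratio of -0.27 (-0.32 to -0.22). Ang stood at 270.2 CPM (257 to 284) and 218 CPM (209 to 227), a ratio of -0.31 (-0.41 to -0.22), or 0.10 once the median ratio of Ang over the other classes was subtracted. On that subtracted scale Rnase4 had -0.58, so the direction was shared in CPM only. In CPM both were a little lower with fibrosis, where the median over 11402 genes was 0.04, with 3.43% at least 2-fold higher and 1.27% at least 2-fold lower. No member passed 2-fold in AT2 cells. Thinned shares of cells with Rnase4 were 60.1% and 56.5%, against 2.12% and 0.798% in B cells.

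The highest level of Rnase4 was in mesothelial cells, which cover the lung surface, with 2337 CPM (2129.6 to 2559.6) in 29 control and 1706 CPM (1554 to 1869) in 30 fibrosis cells. Ang stood at 251 and 229 CPM there. AT1 cells, the thin cells of gas exchange, had 852 CPM of Rnase4 in 36 control and 405 CPM in 54 fibrosis cells, and fibroblasts 689 and 538 CPM. These classes had too few cells to be compared between the libraries. Ciliated cells had 71.1 and 91.0 CPM, a log2 ratio of 0.36 (0.04 to 0.68). In alveolar macrophages Rnase4 stood at 68.8 and 71.7 CPM and Ang at 23.9 and 19.2 CPM, and neither ratio was separated from 0 by its interval (0.06, -0.18 to 0.30, and -0.32, -0.75 to 0.12).

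The pair kept a near-constant proportion in AT2 cells, where Ang made up 21.6% (20.6 to 22.5) of their summed UMIs in the control and 21.1% (20.3 to 21.9) in the fibrosis library. Interstitial macrophages had 20.7% and 19.6% and alveolar macrophages 25.8% and 21.1%. The share was lower in mesothelial cells (9.71% and 11.8%), AT1 cells (11.9% and 5.84%) and fibroblasts (11.6% and 7.41%). In thinned AT2 cells 63.2% of control cells with Ang had Rnase4, against 59.2% of those without, and 60.7% against 55.5% in the fibrosis library, differences of few percentage points. In fibrosis interstitial macrophages 42.9% (21.8 to 66.0) of 21 cells with Ang had Rnase4, against 19.3% (15.4 to 23.6) of 374 without.

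Likeness of pattern was measured as Pearson's correlation of log2(CPM + 1) over the 30 class and library pairs with at least 50 cells, among 12920 genes with at least 100 UMIs. The points share 2 libraries and several lineages, so the values are descriptions without a test. Rnase4 and Ang were nearest to each other (0.91). Rnase2a was nearest to Spp1 (0.83), the matrix protein osteopontin, then Npy (0.78), Arg1 (0.77), the arginine-cleaving enzyme, Speg (0.77) and Mmp12 (0.77). Ear2 was nearest to Abhd12 (0.89), Olr1 (0.86), a receptor for oxidised lipoprotein, Lrp1 (0.85), Lilra5 (0.85) and Cd44 (0.85). Ear1 was nearest to Kcnn3, Gm6116 and Lipf (each 0.89), and Gal and Slc6a4 (each 0.88). Ear1 and Ear2 correlated at 0.71, Ear2 and Rnase2a at 0.50 and Ear1 and Rnase2a at 0.34, while Rnase4 had values of 0.04 with Ear1 and -0.08 with Ear2.

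Of 16 other genes of the family that were listed, 15 were in the count tables and 9 had no UMI in either library, among them Ear14 and Ang2. In alveolar macrophages 4 of them had at least 20 UMIs, and 2 were at least 2-fold higher and 0 at least 2-fold lower with fibrosis, against 3.68% and 1.85% of all genes, with a median log2 ratio of 0.85. Rnase2b, whose transcript is identical to that of Rnase2a at 85.4% of aligned bases, went from 15 to 104 UMIs, 4.37 to 18.8 CPM (log2 ratio 2.11, 1.32 to 2.99). It did not follow Mmp12 measurably (0.40, -0.32 to 1.06). Ear10, whose transcript shares 93.5% with Ear1, had 5 and 28 UMIs (1.80, 0.41 to 3.53), and 41.0% of its end words occur in other genes. Ear6 stood at 32.7 and 21.2 CPM (-0.62) and Rnase6, an antibacterial ribonuclease of phagocytes, at 56.3 and 52.9 CPM (-0.09). Within the fibrosis alveolar macrophages Ear6 was higher in Mmp12-high cells, at 32.7 against 18.4 CPM (0.83, 0.21 to 1.41). The intervals of Ear10 (-1.64, -4.76 to 0.35) and Rnase6 (-0.36, -0.85 to 0.10) held 0 there.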

How the data were processed

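The data were raw UMI counts per gene and cell, deposited by the authors without normalisation as 1 matrix for each of 2 libraries. Per the submitters' processing notes, bcl2fastq, Cell Ranger 1.3 and the mm10 build were used; the counting of reads that match several genes is not given in the sources used here.

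Cells with fewer than 200 genes or over 10% mitochondrial UMIs were left out, keeping 8025 control and 6945 fibrosis cells. A marker counted where its share of a cell's UMIs exceeded the higher of its shares in the 2 libraries. A cell joined the class with the largest share of its markers counted, with at least 3 markers. Cells with 3 markers of another lineage were called mixed (687 and 672), and 760 and 819 cells stayed without a class. Doublets were not called; leaving out the 6% with the highest scrublet scores was an alternative. UMIs were summed per class and library and scaled to CPM, with exact Poisson intervals for levels, exact conditional binomial intervals for log2 ratios and Clopper-Pearson intervals for shares. Genes counted as measured with at least 20 UMIs over both sides of a comparison. A count of 0 was given 3 UMIs in ratios and figures. UMIs from 3′ ends need no length scaling.

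The members and gene lists were chosen with earlier results of these data known. Named genes are the 5 members, listed family genes with at least 20 UMIs, and the 5 genes most like each member. Alternatives were Leiden clusters (56, of which 22 were mixed, from 2000 variable genes, 30 components, 15 neighbours and resolution 1.5), 1 more marker, a size factor, means over cells, an equal UMI floor of 1915, thinning to 1000 UMIs, 5% mitochondrial UMIs, doublet scores, B cell levels subtracted, shared barcodes left out and other Mmp12 bounds. The scripts used scanpy 1.11.5 and scipy 1.17.1 and were tested on simulated data.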

Additional observations from a re-analysis of the deposited data

Results flagged for a closer look

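Ear1 moved in opposite directions in 2 classes that hold little of it. The log2 ratio of fibrosis to control was 3.35 in interstitial macrophages, from 26 against 1 UMIs, and -1.60 in classical monocytes, from 4 against 62 UMIs. The difference between the classes was not tested. In classical monocytes 24 of 66 UMIs lay in 1 control cell, and the ratio was -0.90 without it, -0.50 with clusters, -0.60 without the highest doublet scores, -0.34 without cells that clusters name otherwise and -0.26 in thinned cells. In interstitial macrophages it was 3.07 without the fibrosis cell that held most Ear1 UMIs, 2.57 without cells that clusters name otherwise and 0.92 with clusters, from 21 against 5 UMIs. Both values are thus under 2-fold when classes come from clusters.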

How the results depend on the processing

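Of 96 alternatives for the 8 main results, 68 left the value within its counting interval, or the count within 1.5 times, 28 moved it and 0 reversed it. Of 405 for 32 further ratios 373 did so, 26 moved and 6 reversed. Where the counting interval held 0, a change of sign was not counted as reversed. Ear2 in nonclassical monocytes (-0.01) kept its sign in 8 of 13 alternatives, and Ang in interstitial macrophages (-0.19) in 9 of 13. In thinned cells Rnase4 in type 1 dendritic cells went from 1.11 to -1.23 and Ang in ciliated cells from -0.51 to 0.46. The cause of the shifts was not tested except where named. In alveolar macrophages the fibrosis to control ratio (log2) of Ear1 (-0.73) was -0.88 with clusters, -0.67 as a mean over cells and -0.54 in thinned cells. That of Ear2 (-0.10) was -0.18 with clusters and -0.04 with a size factor. That of Rnase2a (4.97) was 8.21 at a mitochondrial limit of 5%, which removes the control cell with 13 UMIs, and 7.38 without that cell alone. Between Mmp12-high and other cells Ear1 (-1.06) was -1.43 with clusters, -0.88 with 1 more marker, -1.25 in thinned cells and -1.26 at a bound of 0.2%. Ear2 (-0.10) was -0.27 with clusters, -0.03 with 1 more marker, -0.01 with a size factor, -0.27 at 5% mitochondrial UMIs and -0.18 at a bound of 0.2%. Rnase2a (4.30) was 3.85, 3.98 and 4.97 under clusters, 1 more marker and 5% mitochondrial UMIs, 4.95 in thinned cells, 5.34 and 3.95 at bounds of 0.05% and 0.2%, and 3.99 without its richest cell. In thinned cells the Rnase4 difference (0.58) reversed to -0.03, and the ratio of Ear2 in type 2 dendritic cells (0.45) to -0.13. With no filter on low counts 3864 genes passed 2-fold in alveolar macrophages, against 570.

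Alternatives chosen after seeing the data were leaving out single cells, leaving out cells that clusters name otherwise, which gave 4.13 for Ear2 in interstitial macrophages (3.10), and subtracting the median ratio of the other classes. The last gave -0.81 for Ear1 and -0.89 for Ear2 in alveolar macrophages and 2.32 for Ear2 in interstitial macrophages. It reversed Ear2 in classical monocytes (-0.19), type 2 dendritic cells (-0.34) and B cells (-0.01), and Ang in AT2 cells (0.10). No value was possible in 13 cases, 11 where subtracting the B cell level left nothing and 2 where thinned cells held too few UMIs. No paired analysis was possible, since each group is 1 mouse and the labels name no pairing. Levels resting on under 20 UMIs, as for Rnase2a in most classes other than macrophages, are limited by depth.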

Other observations

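Rnase6 had its highest levels in plasmacytoid dendritic cells, at 972 CPM in the control and 702 CPM in the fibrosis library, and stood at 247 and 268 CPM in type 1 dendritic cells, 171 and 162 CPM in nonclassical monocytes and 169.5 and 124 CPM in B cells. Its pattern thus differed from those of Ear1, Ear2, Rnase4 and Ang. Rnh1, the cytosolic inhibitor that binds ribonucleases of this family, stood at 349.7 and 309.9 CPM in alveolar macrophages, a log2 ratio of -0.17. Plxnb2, a receptor for angiogenin, stood at 33.8 and 23.9 CPM there (-0.50), and had a ratio of 0.73 (0.54 to 0.92) in AT2 cells.

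Rnaset2a and Rnaset2b, lysosomal ribonucleases of the unrelated T2 family, had 2135 and 1678 UMIs in the control library but 610 and 567 in the fibrosis library. In alveolar macrophages Rnaset2a stood at 34.7 and 9.42 CPM (log2 ratio -1.88) and Rnaset2b at 32.4 and 10.3 CPM (-1.65), and in AT2 cells the ratios were -1.65 and -1.40. Both were at least 2-fold lower in every class compared in which they had at least 20 UMIs. Since the 2 genes are close copies, their counts are uncertain, and the difference was seen in 1 mouse of each group.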
